A study of Bos taurus with 37 samples.

Results

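Female bovine blastocysts that had gone through a sham nuclear transfer (sham NT-BLs, n = 5) were compared with unmanipulated female blastocysts from in vitro fertilisation (IVF-BLs, n = 6), each embryo being 1 RNA-seq library and 1 replicate. The comparison asks how the transcriptome differs after the handling used in cloning when the embryo keeps its own nucleus. A split of the libraries that the labels do not name, described below, is unevenly shared between these groups. The members are the autosomal genes with a mean over 0.1 FPKM (sequenced fragments scaled to transcript length and to library size) in these 11 libraries, which were 14616 of the 22628 rows of the expression table. Rows of the X chromosome were left out of the members, and rows without a known chromosome were counted as autosomal. The whole series holds 35 blastocysts (IVF, sham NT and somatic cell nuclear transfer, or SCNT, of both sexes) and 2 libraries of donor ear skin fibroblasts.

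By the study's methods, sham NT-BLs came from zygotes picked 18 to 22 h after fertilisation, once both pronuclei could be seen. A figure legend of the study gives an earlier window that ends at 18 h. Each zygote was opened at its zona and lost its polar body along with adjoining cytoplasm, but kept both pronuclei. The zygotes then rested for 2 h, were activated with 5 µM ionomycin for 5 min, were held for 3.5 h in 2.5 mM DMAP in CR1aa medium with 0.3% BSA, and were cultured in vitro to blastocysts. Micromanipulation, the loss of ooplasm and the activation chemicals are all part of the sham procedure and cannot be told apart in this comparison. Sex was called by PCR, and only embryos judged good by Hoechst staining were used, so embryos that failed to reach a good blastocyst are in neither group. Nothing in the labels ties an embryo to a cow, an oocyte batch or a culture run, so p-values measure the spread between these embryos.

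A blastocyst has an outer epithelium, the trophectoderm, which pumps fluid into the cavity, begins the placenta and in cattle secretes interferon tau, and an inner cell mass, which splits into epiblast and primitive endoderm. The transcription factors CDX2, GATA3 and TEAD4 are listed here under the first lineage, POU5F1, SOX2 and NANOG under the second, and GATA6 and GATA4 under the third. How far each is confined to its lineage in these embryos was not tested. Embryos at this stage raise oxidative metabolism and glucose use, and cells meet unfolded proteins, oxidants, low amino acids and mechanical injury with separate programmes: heat shock chaperones, the unfolded protein and integrated stress responses, the NRF2 antioxidant genes, the p53 targets and the immediate early genes. In a whole embryo, fewer cells of a lineage and less RNA per cell cannot be told apart.

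The labelled sex showed in its marker genes. XIST, a long RNA made by the inactive X chromosome, stood at 64.5 to 135 FPKM in the sham NT-BLs and 18.0 to 138 FPKM in the IVF-BLs. The Y-linked UTY reached at most 0.271 FPKM in the sham NT-BLs and 0.0632 FPKM in the IVF-BLs. It was over 0.1 FPKM in 3 of the 5 sham NT-BLs and in none of the IVF-BLs, against 3.74 to 7.68 FPKM in male IVF-BLs. KRT18, a keratin of the trophectoderm, was detected at 1691 to 3271 FPKM in the sham NT-BLs and at 864 to 3635 FPKM (median 2761) in the IVF-BLs. Summed FPKM ran from 507831 to 554711 in the sham NT-BLs and from 414105 to 489827 in the IVF-BLs without overlap (exact two-sided permutation test, p = 0.002165, the smallest that 5 against 6 embryos allow). The 50 most abundant genes held 30.6% ± 2.78 of the summed autosomal FPKM in the sham NT-BLs against 25.7% ± 1.18 in the IVF-BLs (exact p = 0.002165), and 8542 ± 376 against 7767 ± 528 autosomal genes were listed at 0 (exact p = 0.0346, which did not hold in 6 of 11 tests without 1 library). Profiles correlated at r = 0.904 to 0.939 among sham NT-BLs, 0.898 to 0.939 among IVF-BLs and 0.851 to 0.906 between the groups, across genes, which are not independent replicates. FPKM hold no read counts, so the depth behind a value is unknown here.

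A split that the labels do not name runs through these libraries and has to stand before the results. Across the series, 10 autosomal genes separated all 12 female from all 12 male IVF and SCNT libraries by more than 1 on the log2 scale: MIR2290, LOC787220, CNGB1, FBXO47, LOC100848359, PARD6G, LOC519862, LOC780968, LOC527779 and ITPR2. The genes were chosen after the data were seen, and the sham libraries took no part in the choice. At these genes female sham NT-BL replicate 1 stood with the female IVF-BLs at 10 of 10, replicates 2, 3 and 4 stood with the male IVF-BLs at all 10, and replicate 5 stood with the female IVF-BLs at 1. Male sham NT-BL replicates 1 and 2 stood with the male IVF-BLs at all 10, whereas replicates 3, 4, 5 and 6 stood with the female IVF-BLs at 9, 9, 10 and 8. The study's methods state that each sex had its own sequencing pool, which by that wording puts the female sham libraries in the female pool. The labels name no pool for a single library, and the split crosses the labelled sex. Of the donor fibroblast libraries, which are another cell type, the male one stood with the female IVF-BLs at 9 genes and the female one at 10. The cause of the split was not tested. Since 4 of the 5 sham libraries and none of the 6 IVF libraries lie on the male side, the counts below are also given from a fit of sham NT-BLs and IVF-BLs of both sexes with the side of the library as a term. The side does not vary within either IVF group. That fit therefore estimates the effect of the side from the sham libraries alone and takes it as equal in both sexes. Among females it leans on sham NT-BL replicate 1. A call lost in that fit can come from lower precision as well as from a smaller difference.

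**Figure D1:**
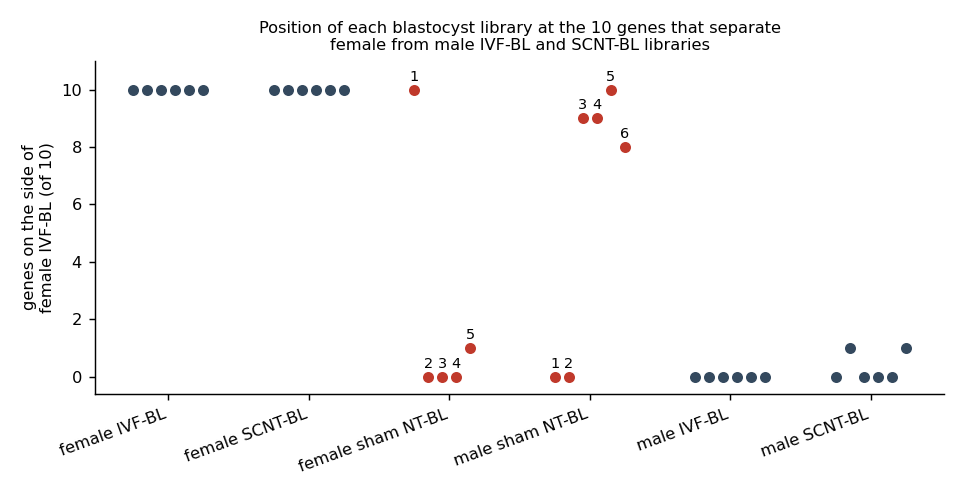
Number of the 10 split genes at which each blastocyst library lies on the side of the female IVF-BLs (vertical axis, 0 to 10), by group. Red points are sham libraries with their replicate number, dark points IVF and SCNT libraries. Female sham replicate 1 is at 10 and the other 4 female sham libraries are at 0 or 1, while 4 of 6 male sham libraries are at 8 to 10.

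Of the 14616 autosomal genes, 1983 differed between sham NT-BLs and IVF-BLs at a limma adjusted p under 0.05 (13.6%), 1032 of them higher (7.06%) and 951 lower (6.51%) in the sham NT-BLs. Adjusted p-values for genes are from limma on log2(FPKM + 1), Benjamini-Hochberg adjusted over the 15259 genes tested here (X-linked ones included) or over those of the comparison named. Values after ± are SD over n = 5 sham NT-BLs and n = 6 IVF-BLs unless marked SE, and log2 fold changes, on the same scale, come out too small for genes of low FPKM. The genes called higher had a median log2 fold change of 1.37 (0.61 to 5.54) and a median level of 44.2 FPKM in the sham NT-BLs against 16.6 FPKM in the IVF-BLs. Those called lower had a median of -1.29 (-6.59 to -0.65), at 9.15 against 25.02 FPKM. A change of more than 1 on the log2 scale was passed by 841 higher and 775 lower genes, and more than 2 by 179 and 89. The 5 sham NT-BLs and the 6 IVF-BLs did not overlap at 1335 genes (9.13%).

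The balance between directions depended on the scale. Over all members the median log2 fold change was -0.09, and when every library was set to the same summed FPKM it was -0.222, with 727 genes called higher and 1611 lower, so that higher calls went from 52.0% to 31.1% of all calls. Other scalings went the other way, median centring with 1148 higher and 777 lower calls (59.6% higher) and quantile normalization with 1031 and 878 (54.0%). With the split of the libraries as a term 497 genes were called higher and 432 lower. Of the 1983 calls 1975 then had the same direction, 742 were still called, and the fold change was a median of 0.914 of that without the term. Leaving out 1 library at a time gave 797 to 1076 higher and 660 to 919 lower calls.

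**Figure D2:**
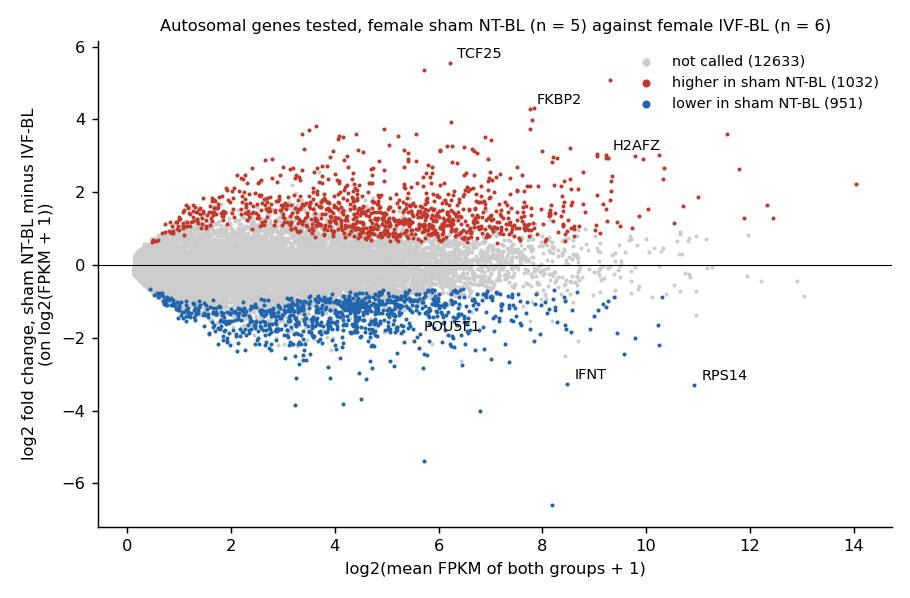
Each point is 1 of the 14616 autosomal genes tested, at the log2 of its mean FPKM over both groups plus 1 (horizontal) and its log2 fold change, sham NT-BL minus IVF-BL (vertical). The 1032 genes called higher are red, the 951 called lower blue and the others grey. Genes called higher and lower have median sham levels of 44.2 and 9.15 FPKM, against 3.135 FPKM for genes not called. Their median IVF levels are 16.6 and 25.02 FPKM, against 3.488 FPKM. TCF25 at 5.54 and IFNT at -3.27 are among the far points.

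Of the genes named for the size of their rise, TCF25, which takes part in the quality control of stalled ribosomes, was at 60.9, 107, 185, 168 and 193 FPKM in sham NT-BL replicates 1 to 5, the order used for every list of 5 values below. The IVF-BLs spanned 0 to 12.3 FPKM (median 1.54), so the lowest sham NT-BL was well above the highest IVF-BL (log2 fold change 5.54 ± 0.54 (SE), adjusted p = 2.5e-05). FKBP2, a peptidyl-prolyl isomerase of the endoplasmic reticulum, was at 222, 452, 342, 408 and 624 FPKM. All 5 values exceeded the IVF-BL range of 10.4 to 26.6 FPKM (median 22.9) (log2 fold change 4.29 ± 0.31 (SE), adjusted p = 2.1e-06). C7H19orf70, the bovine name of a subunit of the complex that shapes the cristae of mitochondria, was at 237, 496, 499, 388 and 460.5 FPKM against 16.2 to 33.5 FPKM (median 24.4), again without overlap (log2 fold change 3.98 ± 0.25 (SE), adjusted p = 9.3e-07). C21H14orf2, a small protein of the mitochondrial ATP synthase, was at 387, 574, 433, 521 and 219 FPKM against 5.42 to 52.04 FPKM (median 26.1) (log2 fold change 4.32 ± 0.54 (SE), adjusted p = 1.5e-04).

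NDUFB1, an accessory subunit of respiratory complex I, was at 173, 408, 673, 402 and 339 FPKM against 5.18 to 57.3 FPKM (median 32.8) in the IVF-BLs (log2 fold change 3.74 ± 0.50 (SE), adjusted p = 2.1e-04), and its lowest sham value was above the highest IVF value. CYB5R4, a cytochrome b5 reductase that has 2 rows in the table, was at 68.8, 65.9, 51.4, 46.5 and 44.01 FPKM in the row tested here and at 0 to 9.099 FPKM (median 4.62) in the IVF-BLs (log2 fold change 3.73 ± 0.51 (SE), adjusted p = 2.5e-04). LOC100848193, a locus without a name, was at 1218 ± 801 against 40.1 ± 34.8 FPKM (log2 fold change 5.08 ± 0.62 (SE), adjusted p = 1.2e-04). These 7 genes were called with the split of the libraries as a term as well, with log2 fold changes of 4.84 for TCF25, 3.75 for FKBP2, 3.36 for C7H19orf70, 4.31 for C21H14orf2, 2.9 for NDUFB1, 3.41 for CYB5R4 and 4.44 for LOC100848193. LOC100337426, also without a name, was at 1.11, 262, 40.9, 42.6 and 169 FPKM against at most 0.325 FPKM (log2 fold change 5.35 ± 0.89 (SE), adjusted p = 0.00101), with replicate 1 close to the IVF-BLs. With the split as a term it lost the call (log2 3.15, adjusted p = 0.179).

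NDUFAF2, an assembly factor of complex I with 2 rows in the table, and CNGB1, a subunit of a cyclic nucleotide gated channel, followed the split. The row of NDUFAF2 was at 0, 29.5, 35.9, 11.1 and 38.4 FPKM in the sham NT-BLs and listed at 0 in all 6 IVF-BLs (adjusted p = 0.00334), so no fold is given. CNGB1, which is 1 of the 10 split genes, was at 1.37, 24.7, 22.5, 26.8 and 26.6 FPKM against 0.0985 to 0.328 FPKM (median 0.255) (log2 fold change 3.72 ± 0.56 (SE), adjusted p = 5.0e-04). In both genes sham NT-BL replicate 1 was the lowest sham value and the other 4 were far above it. With the split as a term neither was called (adjusted p = 0.862 for NDUFAF2 and 0.0703 for CNGB1). For CNGB1, which helped to set the side of each library, that loss was largely built into the fit.

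The lower side opened with 3 split genes. MIR2290, a microRNA gene, was at 801, 0, 0, 0 and 0 FPKM against 175 to 702 FPKM (median 399) (log2 fold change -6.59 ± 1.38 (SE), adjusted p = 0.00505). LOC787220, of which 1 of 2 rows was called, was at 52.5, 0, 0, 0 and 0 FPKM against 69.4 to 119 FPKM (median 89.5) (log2 fold change -5.39 ± 0.82 (SE), adjusted p = 5.8e-04). ITPR2, a calcium channel of the endoplasmic reticulum that also has 2 rows, was at 136, 15.4, 3.605, 0.891 and 9.88 FPKM against 142 to 244 FPKM (median 184) (log2 fold change -4.0 ± 0.74 (SE), adjusted p = 0.00236). Sham NT-BL replicate 1 was within or near the IVF-BL range at these genes and the other 4 were far under it. With the split as a term none was called, and MIR2290 turned to 1.01. These genes helped to set the side of each library, so that loss was largely built into the fit.

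Of the other genes named for the size of their fall, DPM3, which holds an enzyme of protein glycosylation in the membrane, was listed at 0 in all 5 sham NT-BLs and at 7.48 to 43.4 FPKM (median 9.399) in the IVF-BLs (adjusted p = 6.2e-05), so no fold is given. MANF, a secreted protein of the endoplasmic reticulum that is known to be induced there by unfolded proteins, was at 4.24, 0, 0.481, 0 and 1.44 FPKM against 8.92 to 29.5 FPKM (median 14.3) (log2 fold change -3.11 ± 0.47 (SE), adjusted p = 5.1e-04), with every sham value under every IVF value. S100A11, a calcium-binding protein, was at 0.568, 0, 6.58, 1.35 and 0 FPKM against 8.49 to 59.9 FPKM (median 27.3) (log2 fold change -3.82 ± 0.57 (SE), adjusted p = 4.6e-04). RPS14, a protein of the small ribosomal subunit, was at 231, 327, 289, 202 and 703 FPKM against 983 to 5847 FPKM (median 3568) (log2 fold change -3.3 ± 0.43 (SE), adjusted p = 1.8e-04). The groups did not overlap at S100A11 and RPS14. WDR83OS, a small membrane protein of the endoplasmic reticulum, was at 2.72, 22.6, 2.95, 2.43 and 0.281 FPKM against 19.2 to 69.9 FPKM (median 33.2) (log2 fold change -2.97 ± 0.56 (SE), adjusted p = 0.0025), where sham NT-BL replicate 2 lay inside the IVF range. All 5 were called with the split as a term. IFNT and IFNT2 are described with the trophoblast products.

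Gene lists of 21 kinds for stress, metabolism, lineage and related functions, with 5 marker lists of other cells, had 841 members among the genes tested. Of these 155 were called, 67 higher and 88 lower, and with the split as a term 65 of the 155 were still called, among 84 list members called in that fit. Without 1 of the 11 libraries at a time, 106 of the 155 kept their call in all 11 fits and 49 lost it in at least 1, with a highest adjusted p of 0.132. The shares below are to be read against 7.06% higher and 6.51% lower over all members.

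**Figure D3:**
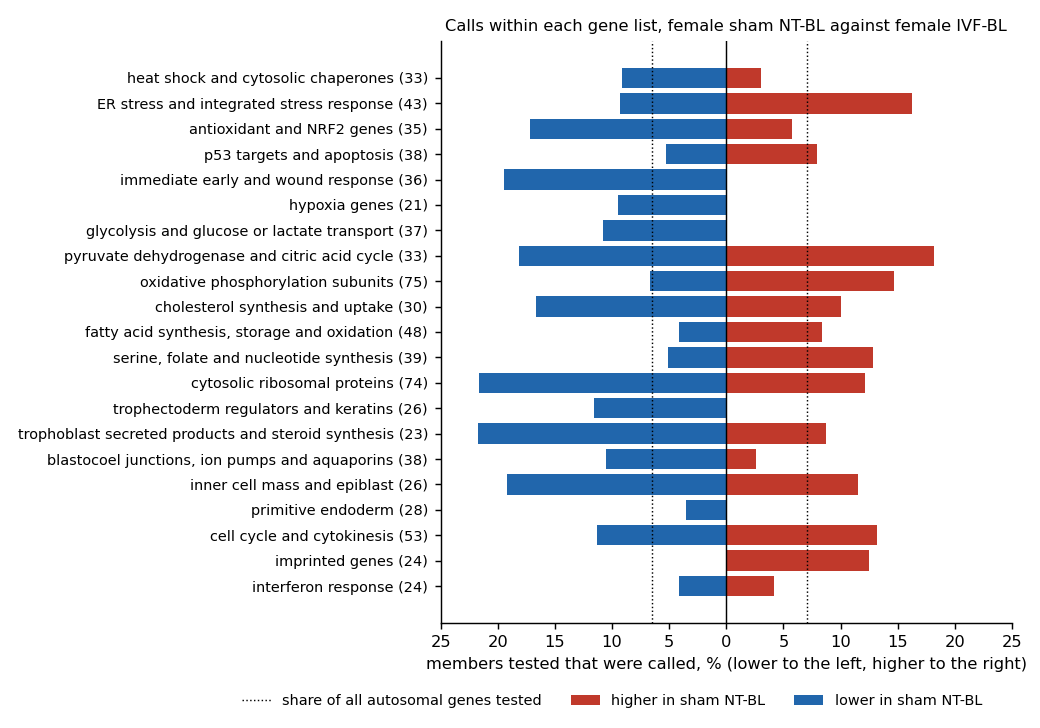
Share of the tested members of each gene list that was called higher (red, to the right) or lower (blue, to the left) in female sham NT-BLs against female IVF-BLs, in percent, with the number tested in brackets. Dotted lines mark 7.06% higher and 6.51% lower, the shares over all autosomal genes tested. The bars of the immediate early, hypoxia, glycolysis, trophectoderm and primitive endoderm lists point to the lower side alone.

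Of 33 cytosolic and mitochondrial chaperones and their partners, 1 was called higher and 3 lower (12.1%, against 13.6% of all members), with a median log2 fold change of -0.15. HSPA1A, the inducible HSP70 that marks an acute heat shock response, was at 7.22, 14.6, 25.3, 16.3 and 26.2 FPKM against 12.5 to 186 FPKM (median 42.03) and did not pass (log2 fold change -1.24 ± 0.56 (SE), adjusted p = 0.17). HSPA8, its constitutive relative, was at 1930 ± 621 against 1172 ± 173 FPKM (log2 fold change 0.65, adjusted p = 0.146). The gene called higher was FKBP4, a partner of HSP90 in steroid receptor complexes, at 312, 408, 596, 449.8 and 896 FPKM against 47.7 to 208 FPKM (median 129). All 5 sham values of FKBP4 were above the IVF range (log2 fold change 2.16 ± 0.35 (SE), adjusted p = 8.4e-04). HSPA9, the HSP70 of mitochondria, was lower (230.5 ± 40.4 against 369 ± 47.3 FPKM, log2 fold change -0.68, adjusted p = 0.0279), as were HSP90AB1, the constitutive HSP90 (910.2 ± 303 against 1623 ± 284 FPKM, log2 fold change -0.87, adjusted p = 0.0368), and DNAJA2, an HSP70 partner (21.5 ± 10.2 against 40.6 ± 12.4 FPKM, log2 fold change -0.95, adjusted p = 0.0445). These 3 lower calls were lost in 6, 7 and 9 of the 11 fits that left out 1 library, up to an adjusted p of 0.0816 for HSPA9, 0.111 for HSP90AB1 and 0.116 for DNAJA2. FKBP4 alone of the 4 stayed called with the split as a term (1.71, adjusted p = 0.0209). HSPA1A, not called in the main fit, was called lower in that fit (-2.55, adjusted p = 0.0277).

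The genes of the unfolded protein and integrated stress responses were called in both directions. Of 43 tested, 7 were higher and 4 lower (median -0.08). ATF6, a sensor of unfolded proteins in the endoplasmic reticulum, was at 457, 278, 273, 369 and 298 FPKM against 33.2 to 116 FPKM (median 83.1). DDIT3, the transcription factor CHOP that acts late in this response, was at 474, 559, 364, 957 and 435 FPKM against 46.1 to 201 FPKM (median 137). Neither overlapped between the groups (ATF6 log2 fold change 2.18 ± 0.31 (SE), adjusted p = 3.2e-04 and DDIT3 log2 fold change 2.31 ± 0.38 (SE), adjusted p = 1.0e-03). The amino acid transporter subunit SLC3A2 was at 718, 581, 474, 588 and 259 FPKM against 88 to 195 FPKM (median 131) (log2 fold change 1.89 ± 0.27 (SE), adjusted p = 3.9e-04), all 5 sham values being above the IVF range.

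Chaperones and degradation factors of the endoplasmic reticulum that were called higher were HYOU1 (83.9 ± 16.6 against 35.1 ± 9.07 FPKM, log2 fold change 1.25, adjusted p = 0.00208), SEL1L, an adaptor of the degradation of misfolded proteins (58.3 ± 14.8 against 25.6 ± 5.41 FPKM, log2 fold change 1.14, adjusted p = 0.00416), and the disulphide isomerase PDIA4 (486 ± 64.1 against 229 ± 98.96 FPKM, log2 fold change 1.25, adjusted p = 0.0295). The locus of PDIA4 overlaps LOC100336368, so that reads of both could mix if strand was not used in the counting. The cysteine tRNA ligase CARS was higher (88.2 ± 24.1 against 50.4 ± 12.9 FPKM, log2 fold change 0.78, adjusted p = 0.0352) and the tryptophan tRNA ligase WARS lower (54.04 ± 10.96 against 95.4 ± 19.5 FPKM, log2 fold change -0.81, adjusted p = 0.0173).

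ATF4, the transcription factor that carries the integrated stress response, was at 175, 99.5, 111, 130.5 and 157 FPKM against 151 to 286 FPKM (median 238) and was called lower (log2 fold change -0.79 ± 0.23 (SE), adjusted p = 0.0312), while its target DDIT3 was called higher. PPP1R15A, the phosphatase subunit that ends that response, was at 12.2, 8.54, 8.08, 6.599 and 5.54 FPKM against 16.7 to 48.7 FPKM (median 33.2) (log2 fold change -1.83 ± 0.30 (SE), adjusted p = 9.3e-04), every sham value being under every IVF value, and MANF was lower as given above. HSPA5, the main chaperone of the endoplasmic reticulum and the usual readout of unfolded proteins, was at 244, 202, 278, 218 and 335 FPKM against 183 to 587 FPKM (median 323) and did not pass (log2 fold change -0.41 ± 0.27 (SE), adjusted p = 0.356). Of these 11 calls 5 remained with the split as a term, ATF6 (2.33), SLC3A2 (2.13), CARS (1.46), PPP1R15A (-2.24) and MANF (-3.53). In that fit DDIT3 was at 1.2 (adjusted p = 0.223) and ATF4 at -0.42 (adjusted p = 0.45). Leaving out 1 library ended the call of CARS in 8, ATF4 in 6 and PDIA4 in 4 of 11 fits (up to adjusted p = 0.0806, 0.0873 and 0.0656), and that of WARS in the fit without sham NT-BL replicate 2 (adjusted p = 0.0527).

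Antioxidant genes were called lower more often than higher. Of 35 tested, 2 were called higher and 6 lower, and the median was -0.47 against -0.09 over all members. GCLC, the catalytic subunit that limits glutathione synthesis, was at 24.96, 39.3, 28.1, 33.9 and 25.6 FPKM against 74.3 to 136 FPKM (median 109). CAT, the catalase that removes hydrogen peroxide, was at 59.9, 26.4, 42.1, 31.9 and 59.9 FPKM against 116 to 197 FPKM (median 141). The groups did not overlap at either gene (GCLC log2 fold change -1.79 ± 0.21 (SE), adjusted p = 9.2e-05 and CAT log2 fold change -1.79 ± 0.25 (SE), adjusted p = 3.1e-04). Haem oxygenase 2, HMOX2 (11.8 ± 2.88 against 48.6 ± 31.97 FPKM, log2 fold change -1.8, adjusted p = 0.00252), and thioredoxin reductase 1, TXNRD1 (32.4 ± 5.83 against 72.3 ± 18.3 FPKM, log2 fold change -1.12, adjusted p = 0.00401), whose locus overlaps EID3, were lower without overlap as well.

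GPX4, the peroxidase that protects membrane lipids, was at 5.32, 26.7, 3.64, 2.64 and 2.93 FPKM against 9.87 to 36.4 FPKM (median 21.6) (log2 fold change -1.75 ± 0.49 (SE), adjusted p = 0.026), with sham NT-BL replicate 2 inside the IVF range and the other 4 under it. MGST1, a microsomal glutathione transferase, was lower at 10.5 ± 4.99 against 26.6 ± 11.8 FPKM (log2 fold change -1.24, adjusted p = 0.0331). On the higher side were SOD1, the cytosolic superoxide dismutase, at 351, 778, 622, 748 and 770.5 FPKM against 114 to 375 FPKM (median 288) (log2 fold change 1.45 ± 0.34 (SE), adjusted p = 0.0103), where replicate 1 lay inside the IVF range. PRDX3, the mitochondrial peroxiredoxin, was higher at 63.2 ± 16.1 against 20.6 ± 9.93 FPKM (log2 fold change 1.64, adjusted p = 0.00118). Once the split was a term, GCLC (-2.17), CAT (-1.48), HMOX2 (-2.64) and TXNRD1 (-1.5) stayed called, and SOD1 was at 0.27 (adjusted p = 0.824). MGST1 and GPX4 lost their calls in 6 and 5 of the 11 fits without 1 library (up to adjusted p = 0.091 and 0.0716).

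In the list of p53 targets and apoptosis, 3 of 38 genes were called higher and 2 lower (median -0.18). MCL1, which blocks apoptosis at the mitochondrion, was at 1109, 2214, 2216, 2307 and 854 FPKM against 144 to 280 FPKM (median 229) (log2 fold change 2.92 ± 0.30 (SE), adjusted p = 3.9e-05), the lowest sham NT-BL being above the highest IVF-BL. The death receptor FAS was at 3.32, 4.88, 5.59, 8.21 and 7.93 FPKM against 0.235 to 2.71 FPKM (median 1.77) (log2 fold change 1.42 ± 0.37 (SE), adjusted p = 0.0191). The 2 lower genes were the p53 targets PERP, a membrane protein (6.39 ± 3.94 against 22.4 ± 7.37 FPKM, log2 fold change -1.76, adjusted p = 0.0051), and cyclin G1, CCNG1 (134 ± 36.3 against 278 ± 97.6 FPKM, log2 fold change -1.01, adjusted p = 0.0232). CDKN1A, the p21 inhibitor of the cell cycle and the classic p53 target, was at 3.87, 9.65, 4.49, 6.15 and 4.14 FPKM against 5.01 to 22.4 FPKM (median 15.3) and did not pass (log2 fold change -1.12, adjusted p = 0.0714). The pro-apoptotic BAX, whose locus overlaps TULP2, was at 66.4 ± 21.1 against 50.8 ± 32.1 FPKM (log2 fold change 0.58, adjusted p = 0.395). MCL1 (2.41) and CCNG1 (-1.78) stayed called with the split as a term, and CDKN1A was called lower in that fit (-2.22, adjusted p = 0.0484). CCNG1 lost its call in 3 of 11 fits without 1 library (up to adjusted p = 0.0609) and FAS without sham NT-BL replicate 4 (adjusted p = 0.0533).

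The immediate early genes, which cells switch on within minutes of injury, growth factors or calcium, were called in the lower direction alone. Of 36 tested, 7 were lower and none higher, against 951 lower and 1032 higher over all members, and the median was -0.82. EGR1 was at 21.8, 39.2, 32.5, 42.7 and 19.1 FPKM against 49.4 to 232 FPKM (median 76.7). KLF4, which is also a pluripotency factor, was at 9.56, 11.98, 8.96, 9.26 and 7.19 FPKM against 16.3 to 65.99 FPKM (median 32.6). The groups did not overlap at either gene (EGR1 log2 fold change -1.57 ± 0.36 (SE), adjusted p = 0.00895 and KLF4 log2 fold change -1.72 ± 0.32 (SE), adjusted p = 0.00236). FOS, a subunit of the AP-1 factor, was at 2.36, 8.51, 9.96, 4.46 and 7.05 FPKM against 9.304 to 50.9 FPKM (median 25.9) (log2 fold change -1.79 ± 0.44 (SE), adjusted p = 0.0138), the 2 groups overlapping at a single sham value.

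IER3, a short-lived regulator of survival, was at 4.51 ± 1.28 against 22.1 ± 15.7 FPKM (log2 fold change -1.85, adjusted p = 0.0063), and CYR61, a secreted target of the Hippo pathway, at 7.27 ± 2.94 against 29.6 ± 11.97 FPKM (log2 fold change -1.84, adjusted p = 0.00248). The nuclear receptor NR4A1 was at 5.24 ± 4.48 against 24.9 ± 12.7 FPKM (log2 fold change -2.21, adjusted p = 0.0146) and EGR2 at 0.0729 ± 0.103 against 2.03 ± 1.28 FPKM (log2 fold change -1.38, adjusted p = 0.00947). All 7 calls held without any 1 library. In the fit with the split as a term FOS (-2.65), IER3 (-2.26), EGR2 (-1.42) and EGR1 (-2.3) remained called and the list median was -0.93.

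Of 21 hypoxia genes, 2 were called lower and none higher (median -0.15). They were HIF1A, the oxygen-regulated transcription factor (28.1 ± 6.07 against 51.8 ± 14.5 FPKM, log2 fold change -0.83, adjusted p = 0.0295), and its target BNIP3, a mitochondrial protein of mitophagy (47.1 ± 16.1 against 105 ± 44.8 FPKM, log2 fold change -1.08, adjusted p = 0.0387). HIF1A lost its call in 5 and BNIP3 in 7 of 11 fits without 1 library (up to adjusted p = 0.0777 and 0.0917). With the split as a term HIF1A stayed just under the threshold (-1.08, adjusted p = 0.05), BNIP3 did not pass (-0.96, adjusted p = 0.154) and 1 other gene of the list was called higher.

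**Figure D4:**
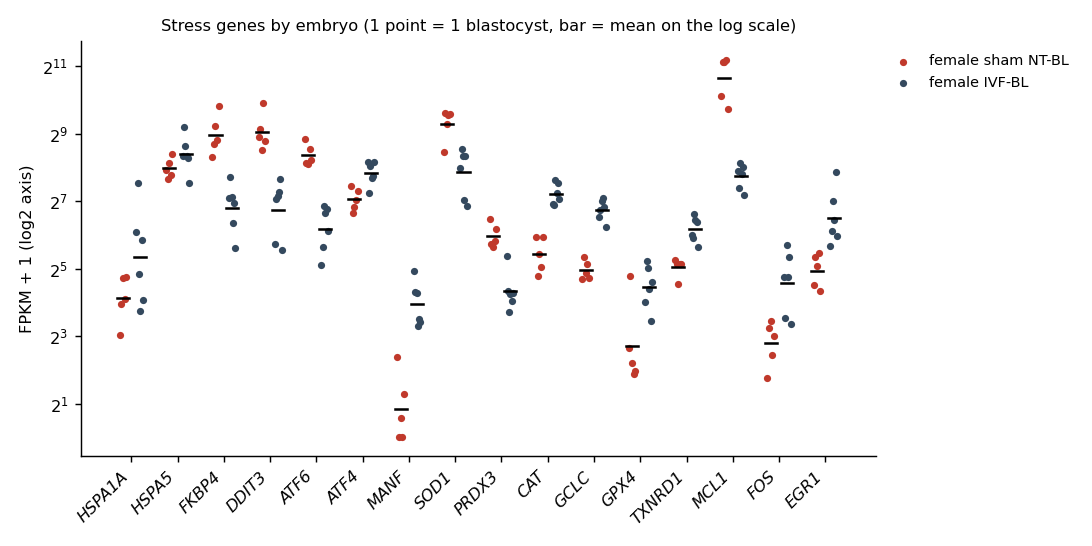
FPKM + 1 (log2 axis) of 16 stress genes in each embryo, with female sham NT-BLs in red and female IVF-BLs in dark blue. Points are single blastocysts and bars the mean on the log scale. FKBP4, DDIT3, ATF6 and MCL1 show sham values above all IVF values and CAT and GCLC below them, whereas HSPA1A and HSPA5 overlap.

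Of 37 genes for glycolysis and for glucose or lactate transport, 4 were called lower and none higher (10.8%), with a median of -0.05. ENO1, the enolase, was at 5.53, 18.9, 10.9, 11.6 and 15.6 FPKM against 18.4 to 83.7 FPKM (median 53.3) (log2 fold change -1.84 ± 0.41 (SE), adjusted p = 0.00813), with 1 sham value inside the IVF range. The others were TPI1, the triosephosphate isomerase (6.17 ± 8.53 against 44.7 ± 45.9 FPKM, log2 fold change -2.83, adjusted p = 0.0325), LDHB, the lactate dehydrogenase of aerobic tissue (20.1 ± 14.8 against 45.4 ± 17.6 FPKM, log2 fold change -1.29, adjusted p = 0.0244), and PFKFB2, which sets the pace of phosphofructokinase (5.34 ± 3.52 against 13.8 ± 4.51 FPKM, log2 fold change -1.36, adjusted p = 0.0383). GAPDH was at 477, 1099, 918, 1058 and 465 FPKM against 1038 to 1843 FPKM (median 1424) and did not pass (log2 fold change -0.89, adjusted p = 0.0613), nor did the glucose transporter SLC2A1 (78.9 ± 17.3 against 51.95 ± 18.2 FPKM, log2 fold change 0.63, adjusted p = 0.111) or LDHA (41.3 ± 30.8 against 31.9 ± 12.5 FPKM, log2 fold change 0.22, adjusted p = 0.732). ENO1 alone of the 4 held without any 1 library and with the split as a term (-2.74). PFKFB2, TPI1 and LDHB lost their calls in 9, 6 and 4 of 11 fits (up to adjusted p = 0.0912, 0.0816 and 0.0684). GAPDH was called lower with the split as a term (-1.51, adjusted p = 0.0237), and 1 other gene of the list was called higher.

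The enzymes around the citric acid cycle moved both ways. Of 33 tested, 6 were called higher and 6 lower (median -0.25). SDHA, the catalytic subunit of succinate dehydrogenase, was at 80.3, 60.02, 56.5, 76.8 and 97.03 FPKM against 16.2 to 58.4 FPKM (median 27.6) (log2 fold change 1.31 ± 0.29 (SE), adjusted p = 0.00763). SDHB, its iron-sulphur subunit, was at 102, 225, 146, 206 and 93.2 FPKM against 53.8 to 97.7 FPKM (median 64.8) (log2 fold change 1.08 ± 0.27 (SE), adjusted p = 0.0141). At SDHA and at SDHB only the lowest sham value lay inside the IVF range. Also higher were SUCLA2 of succinyl-CoA ligase (79.7 against 44 FPKM, log2 0.88, adjusted p = 0.0209), IDH3B of isocitrate dehydrogenase, which overlaps NOP56 (159 against 91.8 FPKM, log2 0.79, adjusted p = 0.0214), and the cytosolic IDH1 (335 against 204 FPKM, log2 0.72, adjusted p = 0.0304).

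Of the 6 lower genes, PDHX, the component that binds the third enzyme of the pyruvate dehydrogenase complex, was at 14.2, 17.5, 11.1, 14.03 and 10.9 FPKM against 22.5 to 36.95 FPKM (median 27.6) without overlap (log2 fold change -1.01 ± 0.22 (SE), adjusted p = 0.0068). PDHB, a subunit of its first enzyme, was at 20.6 ± 8.13 against 48.1 ± 14.6 FPKM (log2 fold change -1.21, adjusted p = 0.00892), and BRP44L, the mitochondrial pyruvate carrier subunit, at 84.7 ± 30.4 against 154 ± 46.1 FPKM (log2 fold change -0.87, adjusted p = 0.0481). Pyruvate carboxylase, PC (20.9 against 34.9 FPKM, log2 -0.74, adjusted p = 0.038), malate dehydrogenase, MDH2 (101 against 174 FPKM, log2 -0.75, adjusted p = 0.0327), and the mitochondrial aspartate transaminase GOT2 (46.2 against 93.4 FPKM, log2 -1.08, adjusted p = 0.0257) were lower as well. The loci of PDHX, PC and MDH2 overlap other genes. Among these genes SDHA (1.63), IDH1 (1.05) and PC (-0.95) remained called when the split was a term, whereas PDHX (-0.71, adjusted p = 0.222), PDHB (-0.6, adjusted p = 0.348) and BRP44L (-0.21, adjusted p = 0.806) did not. The calls of PC, BRP44L, IDH1, MDH2 and GOT2 were lost in 9, 8, 7, 7 and 5 of 11 fits without 1 library, up to an adjusted p of 0.132 for BRP44L, that of SUCLA2 without sham NT-BL replicate 2 or 3 (up to 0.0592) and that of IDH3B without replicate 4 (0.0655).

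Subunits of oxidative phosphorylation were called higher more often than lower. Of 75 nuclear-encoded subunits tested, 11 were higher and 5 lower, and the median of 0.11 turned to -0.10 when libraries were set to the same summed FPKM. NDUFA4, a subunit found with cytochrome c oxidase, was at 2560, 2227, 2365, 2496 and 1170 FPKM against 288 to 588 FPKM (median 381) (log2 fold change 2.37 ± 0.28 (SE), adjusted p = 8.3e-05). ATP5H, of the stalk of ATP synthase, was at 429, 736, 921, 519 and 489.6 FPKM against 97.9 to 186 FPKM (median 104) (log2 fold change 2.35 ± 0.25 (SE), adjusted p = 4.3e-05). At both genes every sham value exceeded every IVF value. NDUFA7 of complex I was at 72.5, 779.8, 845, 696 and 239 FPKM against 36.02 to 73.8 FPKM (median 57.1) (log2 fold change 2.83 ± 0.52 (SE), adjusted p = 0.00219), with replicate 1 inside the IVF range and the other 4 above it.

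The other subunits called higher were NDUFB1, SDHA and SDHB, given above, with ATP5J of ATP synthase (400.3 against 157 FPKM, log2 1.43, adjusted p = 0.00443) and the complex I subunits NDUFB9 (182 against 73.5 FPKM, log2 1.37, adjusted p = 0.00469), which overlaps MTSS1, NDUFB4 (144 against 60.8 FPKM, log2 1.25, adjusted p = 0.0166), NDUFA3 (176 against 77.95 FPKM, log2 1.23, adjusted p = 0.0121) and NDUFA6 (106 against 47.6 FPKM, log2 1.13, adjusted p = 0.0479). COX5A, a subunit of cytochrome c oxidase, was lower at 32.1, 24.6, 16.4, 19.9 and 75.6 FPKM against 89.3 to 163 FPKM (median 108) (log2 fold change -1.96 ± 0.33 (SE), adjusted p = 0.00106), with no overlap. The other lower subunits were NDUFS8, NDUFS7 and NDUFS5 of complex I (8.67 against 16.9 FPKM, log2 -0.89, 4.99 against 14.2 FPKM, log2 -1.55 and 38.4 against 76.2 FPKM, log2 -1.06) and ATP5G2 of ATP synthase (424 against 809 FPKM, log2 -0.98). Of the 16 calls 7 remained with the split as a term, all of them higher: NDUFB1 (2.9), NDUFA4 (2.59), ATP5H (2.25), NDUFB9 (1.92), NDUFA3 (1.7), SDHA (1.63) and ATP5J (1.4). NDUFA6 and NDUFS7 were lost in 8, NDUFS8 in 5 and ATP5G2 in 2 of the 11 fits without 1 library (up to adjusted p = 0.114 for NDUFA6, 0.0883 for NDUFS7, 0.0655 for NDUFS8 and 0.0628 for ATP5G2).

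In cholesterol synthesis and uptake, 3 of 30 genes were called higher and 5 lower (median -0.13). IDI1, the isomerase of isoprenoid units, was at 5.88, 5.51, 5.29, 5.101 and 8.61 FPKM against 10.2 to 39.8 FPKM (median 20), with no overlap (log2 fold change -1.58 ± 0.36 (SE), adjusted p = 0.00925). NPC2, which carries cholesterol out of lysosomes, was lower at 18.8 ± 10.02 against 46.8 ± 22.9 FPKM (log2 fold change -1.27, adjusted p = 0.0242). The synthesis enzymes MVD (2.61 against 7.85 FPKM, log2 -1.41) and DHCR7 (33.8 against 62.3 FPKM, log2 -0.93) were lower too. Higher were the squalene synthase FDFT1 (66.9 ± 40.8 against 20 ± 4.91 FPKM, log2 fold change 1.48, adjusted p = 0.0147), the desaturase SC5DL (151 ± 58.1 against 55.7 ± 31.5 FPKM, log2 fold change 1.54, adjusted p = 0.0143) and the thiolase ACAT2 (70.3 ± 15.5 against 32.5 ± 10.8 FPKM, log2 fold change 1.14, adjusted p = 0.0142), whose locus overlaps TCP1. NPC2 (-1.78) and ACAT2 (1.31) stayed called with the split as a term, and NPC2, MVD and DHCR7 lost their calls in 5, 5 and 2 of 11 fits without 1 library (up to adjusted p = 0.0854 for MVD).

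For fatty acids, 4 of 48 genes were called higher and 2 lower (median -0.02). ETFB, which hands electrons from fatty acid oxidation to the respiratory chain, was at 204, 450.4, 403, 249 and 173 FPKM against 49.9 to 107 FPKM (median 60.6) (log2 fold change 2.03 ± 0.28 (SE), adjusted p = 3.1e-04), all above the IVF range. Higher too were CPT2, the inner carnitine transferase of mitochondria (56.6 ± 9.39 against 27.7 ± 11.2 FPKM, log2 fold change 1.07, adjusted p = 0.0118), and DGAT1, which completes triglycerides and overlaps HSF1 (28.2 ± 16.7 against 12.3 ± 4.05 FPKM, log2 fold change 1.03, adjusted p = 0.0492). Lower were the elongase ELOVL5 (25.9 ± 6.83 against 71.05 ± 33.9 FPKM, log2 fold change -1.32, adjusted p = 0.0112) and the lipogenic transcription factor SREBF1 (1.11 ± 0.318 against 3.19 ± 0.931 FPKM, log2 fold change -0.97, adjusted p = 0.0452). PLIN2, the coat of lipid droplets, was at 70.5, 115, 124, 185 and 177 FPKM against 29.6 to 127 FPKM (median 52.9) and did not pass (log2 fold change 1.06, adjusted p = 0.0598), nor did SCD (34.2 ± 27.5 against 64.1 ± 39.9 FPKM, log2 fold change -1.05, adjusted p = 0.27) or CPT1A (36.8 ± 8.17 against 25.7 ± 13.9 FPKM, log2 fold change 0.62, adjusted p = 0.217). ETFB (1.61) and CPT2 (1.39) stayed called with the split as a term. DGAT1 and SREBF1 each lost the call in 9 of 11 fits without 1 library (up to adjusted p = 0.112 and 0.0929).

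Serine, folate and nucleotide synthesis had 5 higher and 2 lower calls among 39 genes, with a median of 0.10 that turned to -0.13 at equal summed FPKM. IMPDH1, which limits guanine nucleotide synthesis, was at 34.2, 39.3, 42.2, 56.03 and 37.5 FPKM against 3.3 to 12.9 FPKM (median 8.81) (log2 fold change 2.24 ± 0.29 (SE), adjusted p = 1.8e-04). PHGDH, the first enzyme of serine synthesis, was at 33.1, 22.97, 49.1, 26.6 and 22.6 FPKM against 3.88 to 21.4 FPKM (median 10.5) (log2 fold change 1.51 ± 0.35 (SE), adjusted p = 0.00913). Neither overlapped between the groups. PGD of the pentose phosphate pathway (301 ± 37.97 against 153 ± 39.3 FPKM, log2 fold change 1.01, adjusted p = 0.00547) and the folate enzyme MTHFD1L (185 ± 42.9 against 91.8 ± 27.9 FPKM, log2 fold change 1.03, adjusted p = 0.00963) were also higher. TALDO1, the transaldolase (14.1 ± 9.899 against 39.4 ± 8.5 FPKM, log2 fold change -1.59, adjusted p = 0.00438), and TK1, the thymidine kinase (4.09 ± 1.29 against 11.1 ± 3.41 FPKM, log2 fold change -1.23, adjusted p = 0.0211), were lower. Of the 7 calls 2 remained with the split as a term, IMPDH1 (2.27) and PGD (1.0, adjusted p just under 0.05), and TK1 was lost without sham NT-BL replicate 2 (adjusted p = 0.0564).

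Cytosolic ribosomal proteins had the largest number of calls of the lists. Of 74 tested, 9 were called higher and 16 lower (33.8% against 13.6% over all members), with a median of -0.32. RPS13 was at 270.4, 151, 196, 184 and 401 FPKM against 828.9 to 1820 FPKM (median 1345) (log2 fold change -2.44 ± 0.29 (SE), adjusted p = 1.1e-04). RPS19 was at 22.99, 26.2, 10.1, 17.3 and 26.03 FPKM against 61.5 to 297 FPKM (median 134) (log2 fold change -2.75 ± 0.35 (SE), adjusted p = 1.8e-04). These small-subunit proteins were lower in every sham NT-BL than in any IVF-BL, as was RPL7 of the large subunit (17.1 ± 6.903 against 72.7 ± 16.7 FPKM, log2 fold change -2.08, adjusted p = 1.3e-04). RPS3A, RPS9, RPS12, RPL9, RPL12, RPL19, RPL28, RPL31 and RPL35 had log2 fold changes of -2.02, -1.4, -2.12, -1.23, -1.23, -1.53, -1.15, -1.09 and -1.13, all of them called lower, and RPL15 (-0.81) and RPL7A (-1.02) were lower by calls that were lost in 8 of 11 fits without 1 library (up to adjusted p = 0.108).

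RPS6, the substrate of S6 kinase, was higher, at 1143, 1034, 966, 1230 and 525 FPKM against 147 to 364 FPKM (median 293) (log2 fold change 1.78 ± 0.28 (SE), adjusted p = 7.9e-04), without overlap. RPL24, RPL10A, RPS29, RPL5, RPL3 and RPL18 were called higher, with log2 fold changes of 2.56, 3.0, 2.1, 1.45, 1.42 and 1.08. Of the 25 calls 15 remained with the split as a term. Ribosomal protein genes have many processed copies in the genome, and how reads of such copies were shared out is not known, so which single members were higher or lower is uncertain.

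Of 26 trophectoderm regulators and keratins tested, 3 were called lower and none higher (11.5%, median -0.44). CDX2 was at 6.19, 20.02, 11.7, 8.24 and 24.2 FPKM against 17.4 to 30.9 FPKM (median 19.6) and did not pass (log2 fold change -0.75 ± 0.32 (SE), adjusted p = 0.147). GATA3 was at 102, 166, 119.9, 146 and 135 FPKM against 122 to 223 FPKM (median 142) (log2 fold change -0.17 ± 0.21 (SE), adjusted p = 0.621). TFAP2C (43.03 ± 16.2 against 48.6 ± 14.2 FPKM, log2 fold change -0.19, adjusted p = 0.684), KRT8 (1424 ± 485 against 2541 ± 1008 FPKM, log2 fold change -0.71, adjusted p = 0.3) and KRT18 (2361 ± 595 against 2592 ± 922 FPKM, log2 fold change -0.05, adjusted p = 0.948) did not pass either. TEAD4, the Hippo-pathway factor that opens the lineage, was at 48.98, 11.3, 36.9, 21.1 and 53.9 FPKM against 52.5 to 91.1 FPKM (median 77.5) (log2 fold change -1.27 ± 0.34 (SE), adjusted p = 0.0207), with replicate 5 just inside the IVF range. KLF5 was at 44.4, 39.5, 36.8, 37.4 and 36.7 FPKM against 70.7 to 111 FPKM (median 74.2) (log2 fold change -1.01 ± 0.18 (SE), adjusted p = 0.00215), without overlap and with little spread among the sham NT-BLs. ARID3A was lower at 2.48 ± 1.22 against 6.67 ± 2.01 FPKM (log2 fold change -1.16, adjusted p = 0.044). KLF5 (-1.04) and ARID3A (-1.96) stayed called with the split as a term, TEAD4 lost its call without sham NT-BL replicate 4 (adjusted p = 0.059) and ARID3A in 9 of 11 fits (up to 0.115).

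Products that the trophoblast secretes were called in both directions. Of 23 tested, 2 were called higher and 5 lower (median -0.45). IFNT, the interferon tau by which the ruminant conceptus signals to the mother, was at 38.4, 29.7, 9.28, 45.5 and 76 FPKM in the sham NT-BLs and spread from 32.3 to 1949 FPKM (median 329.7) in the IVF-BLs (log2 fold change -3.27 ± 0.83 (SE), adjusted p = 0.0161). Of the sham values 3 were inside that wide range, near its lowest embryo. IFNT2, another gene of the family, was at 3.75, 1.54, 1.74, 1.16 and 8.26 FPKM against 6.29 to 112 FPKM (median 27.1) (log2 fold change -3.13 ± 0.58 (SE), adjusted p = 0.0022), with replicate 5 alone inside the IVF range. The interferon tau genes are near copies, so how reads were divided among them is uncertain.

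LGALS3, a galectin of the trophectoderm, was lower without overlap (60.1, 6.92, 29.99, 45.7 and 49.1 FPKM against 65.9 to 221 FPKM (median 131), log2 fold change -1.93 ± 0.46 (SE), adjusted p = 0.0118). The ferredoxin FDX1 (1.098 ± 0.357 against 3.84 ± 1.45 FPKM, log2 fold change -1.16, adjusted p = 0.0317) and STARD3 (2.69 ± 1.69 against 7.25 ± 2.76 FPKM, log2 fold change -1.23, adjusted p = 0.045), both of steroid synthesis, were lower with calls lost in 7 and 9 of 11 fits without 1 library (up to adjusted p = 0.0788 and 0.102). The trophoblast protein SSLP1 was higher at 225, 513, 346, 363 and 303 FPKM against 44.4 to 138 FPKM (median 68.7) (log2 fold change 2.17 ± 0.30 (SE), adjusted p = 2.5e-04), as was PTGES, the synthase of prostaglandin E (81.1 ± 32.2 against 27.01 ± 22.03 FPKM, log2 fold change 1.73, adjusted p = 0.0121). In the fit with the split as a term IFNT (-4.47, adjusted p = 0.0387), IFNT2 (-4.14) and SSLP1 (1.72) stayed called.

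Genes for the blastocoel, its junctions and its pumps had 1 higher and 4 lower calls among 38 (median -0.21). PKP2, a plakophilin of desmosomes, was at 26.3, 19.9, 19.99, 18.3 and 25.2 FPKM against 29.8 to 61.5 FPKM (median 45.97) (log2 fold change -1.02 ± 0.22 (SE), adjusted p = 0.00689), with no overlap. CLDN1, a tight junction claudin, was at 0.3, 0, 5.498, 0.357 and 4.46 FPKM against 4.63 to 90.8 FPKM (median 12.4) (log2 fold change -2.8 ± 0.69 (SE), adjusted p = 0.0143). The polarity protein PARD3 was lower at 18.7 ± 7.796 against 37.1 ± 6.92 FPKM (log2 fold change -1.03, adjusted p = 0.0189). CTNNA1, alpha catenin, was higher (426 ± 101 against 267 ± 22.03 FPKM, log2 fold change 0.65, adjusted p = 0.0441) by a call lost in 9 of 11 fits without 1 library (up to adjusted p = 0.125), and its locus overlaps LRRTM2. PARD3 was lost in 2 of 11 (up to 0.0553). The water channel AQP3 (35.4 ± 15.6 against 67.5 ± 35.4 FPKM, log2 fold change -0.9, adjusted p = 0.133) and the sodium pump subunit ATP1B1, which overlaps NME7 (4.69 ± 5.71 against 6.43 ± 5.6 FPKM, log2 fold change -0.79, adjusted p = 0.532), did not pass, and PKP2 alone (-0.98) stayed called with the split as a term.

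The inner cell mass and epiblast genes differed by member. Of 26 tested, 3 were called higher and 5 lower (median -0.35). POU5F1, the OCT4 factor required for pluripotency, was at 18.2, 11.1, 31.7, 12.3 and 17.2 FPKM against 35.6 to 136 FPKM (median 72.5) (log2 fold change -1.97 ± 0.33 (SE), adjusted p = 0.00112). ESRRB, an orphan receptor of the same network, was at 13.6, 13.9, 18.3, 12.1 and 18.9 FPKM against 57.2 to 129 FPKM (median 74.96) (log2 fold change -2.28 ± 0.25 (SE), adjusted p = 4.8e-05). At both genes all 5 sham NT-BLs were below all 6 IVF-BLs. SOX2, whose locus overlaps LOC100849009, was at 19.1, 16.5, 17.1, 16.1 and 27.5 FPKM against 6.03 to 41.8 FPKM (median 23.2) (log2 fold change 0.01 ± 0.38 (SE), adjusted p = 0.986) and NANOG at 0, 2.58, 2.62, 5.695 and 11.03 FPKM against 0.695 to 20.99 FPKM (median 3.26) (log2 fold change -0.13 ± 0.70 (SE), adjusted p = 0.927). Neither SOX2 nor NANOG passed, and SALL4 did not (15.1 ± 7.15 against 22.1 ± 7.93 FPKM, log2 fold change -0.55, adjusted p = 0.307).

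TBX3 (67.1 ± 7.34 against 108 ± 18.8 FPKM, log2 fold change -0.67, adjusted p = 0.0252), KLF4, given above, and IFITM3, a membrane protein of germ cells and pluripotent cells (167 ± 72.5 against 528 ± 212 FPKM, log2 fold change -1.65, adjusted p = 0.0116), were also lower. H2AFZ, the histone variant H2A.Z, was higher at 833, 1051, 1023, 1166 and 1203 FPKM against 84.4 to 213 FPKM (median 130.2) (log2 fold change 3.01 ± 0.26 (SE), adjusted p = 1.2e-05). DPPA3, the maternal factor that shields methylation in the zygote, was at 1949, 2645, 3110, 2984 and 1976 FPKM against 683 to 1051 FPKM (median 798) (log2 fold change 1.61 ± 0.24 (SE), adjusted p = 5.2e-04). LIN28A, an RNA-binding protein that blocks let-7, was higher too (15.9 ± 3.61 against 5.04 ± 2.48 FPKM, log2 fold change 1.56, adjusted p = 0.00659). The sham and IVF values did not overlap at these 3 genes. Once the split was a term, POU5F1 (-1.78, adjusted p = 0.0125), ESRRB (-2.31), H2AFZ (3.07) and DPPA3 (1.73) stayed called, LIN28A was at 0.09, and TBX3 was lost in 4 of 11 fits without 1 library (up to adjusted p = 0.067).

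Among 28 primitive endoderm genes 1 was called, lower (median -0.02). GATA6 was at 75.6, 111, 83.97, 74.8 and 87.2 FPKM against 109.5 to 248 FPKM (median 178) (log2 fold change -0.95 ± 0.24 (SE), adjusted p = 0.018), with replicate 2 inside the IVF range, and it was not called with the split as a term (-0.82, adjusted p = 0.0915). GATA4 (0.94 ± 0.165 against 1.37 ± 0.754 FPKM, log2 fold change -0.24, adjusted p = 0.623) and the matrix protein FN1 (5114 ± 1647 against 2844 ± 858 FPKM, log2 fold change 0.83, adjusted p = 0.12) did not pass, and SOX17 was under the filter on low values.

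**Figure D5:**
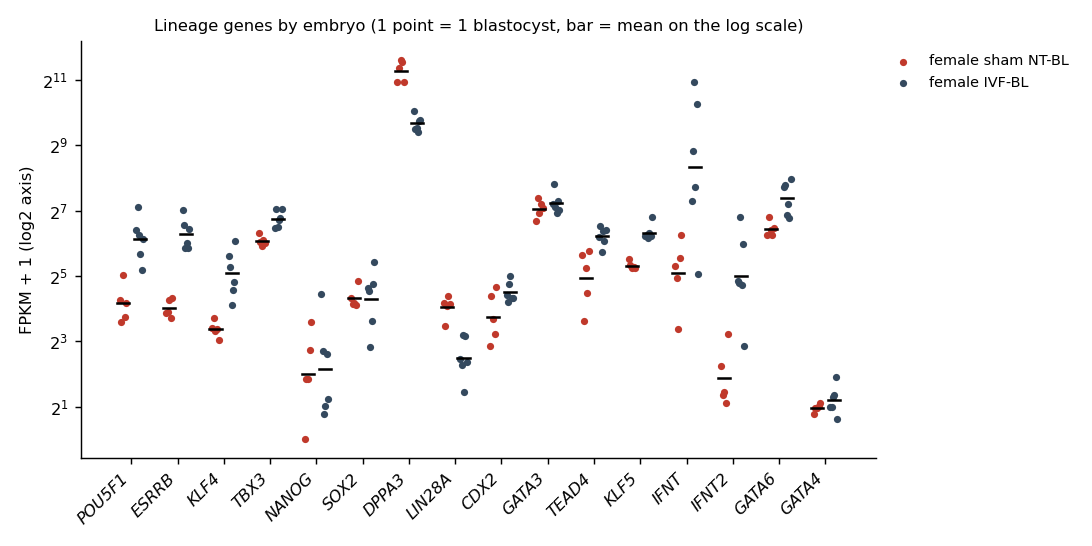
FPKM + 1 (log2 axis) of 16 lineage genes in each embryo, with female sham NT-BLs in red and female IVF-BLs in dark blue. Points are single blastocysts and bars the mean on the log scale. POU5F1, ESRRB, KLF4 and KLF5 have all sham values below all IVF values and DPPA3 and LIN28A above them, while CDX2, GATA3, SOX2, NANOG and GATA4 overlap.

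Cell cycle genes were called in both directions, 7 higher and 6 lower of 53 (median -0.09). CDC20, which activates the anaphase complex, was at 16.7, 13.9, 15.5, 14.3 and 18.5 FPKM against 44.95 to 73.2 FPKM (median 54.4) (log2 fold change -1.73 ± 0.20 (SE), adjusted p = 7.7e-05). GMNN, the geminin that blocks renewed replication, was at 125, 133, 125, 159 and 148 FPKM against 26.5 to 46.9 FPKM (median 38.3) (log2 fold change 1.9 ± 0.21 (SE), adjusted p = 4.9e-05). The 2 genes separated the groups completely, in opposite directions. CDKN2A, the locus of the inhibitors p16 and ARF, was at 10.6, 34.1, 24.7, 19.7 and 20.4 FPKM against 1.797 to 4.36 FPKM (median 2.92) (log2 fold change 2.45 ± 0.33 (SE), adjusted p = 2.2e-04). The cytokinesis motor KIF20A, which overlaps CDC23, was higher as well (495 ± 93.9 against 177 ± 36.7 FPKM, log2 fold change 1.48, adjusted p = 3.5e-04). The mitotic cyclin CCNB1 (36.4 ± 12.4 against 93.05 ± 40.9 FPKM, log2 fold change -1.28, adjusted p = 0.0102), the checkpoint kinase BUB1 (21.3 ± 5.38 against 48.5 ± 14.5 FPKM, log2 fold change -1.13, adjusted p = 0.00778), the replication clamp PCNA (2.34 ± 1.25 against 9.44 ± 4.58 FPKM, log2 fold change -1.62, adjusted p = 0.00785) and ECT2 of cytokinesis (26.8 ± 7.93 against 48.4 ± 8.22 FPKM, log2 fold change -0.85, adjusted p = 0.0204) were lower. CDK1 was at 1.76 ± 1.39 against 2.27 ± 1.25 FPKM (log2 fold change -0.26, adjusted p = 0.711).

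The other calls of the list were PLK4 (1.12), TOP2A (1.01), BUB3 (0.76) and MCM5 (0.74) on the higher side and CCND3 (-1.25) on the lower. MCM5, CCND3, BUB3 and TOP2A lost the call in 10, 8, 5 and 2 of 11 fits without 1 library (up to adjusted p = 0.126 for MCM5). GMNN, CDC20, MCM5, KIF20A and CDKN2A were called with the split as a term.

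Of 24 imprinted genes 3 were called higher and none lower (median -0.08). GNAS, the stimulatory G protein (249 ± 67.8 against 124 ± 43.95 FPKM, log2 fold change 1.02, adjusted p = 0.0164), GRB10, an adaptor that restrains growth (45.7 ± 23.2 against 17.4 ± 3.39 FPKM, log2 fold change 1.24, adjusted p = 0.00909), and BLCAP, whose locus contains NNAT (47.3 ± 8.52 against 22.8 ± 8.77 FPKM, log2 fold change 1.1, adjusted p = 0.0196), were higher. None of them was called with the split as a term. IGF2R, the gene tied to large offspring after embryo culture, was at 13.4, 12.3, 14.96, 19.02 and 31.7 FPKM against 12.7 to 22.7 FPKM (median 16.9) (log2 fold change 0.01 ± 0.27 (SE), adjusted p = 0.99), and H19 was under the filter. Of 24 interferon response genes 1 was called higher and 1 lower, the lower being the RNA sensor IFIH1 (0.09 ± 0.0386 against 1.21 ± 0.741 FPKM, log2 fold change -0.94, adjusted p = 0.0347), which lost its call in 9 of 11 fits without 1 library (up to adjusted p = 0.076). Neither was called with the split as a term.

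Among markers of cells that could remain on or in an embryo, a single blood gene was called. None of 22 oocyte and maternal genes was called, and their summed FPKM were 13.4 to 71.1 in the sham NT-BLs and 35.1 to 68.9 in the IVF-BLs. None of 14 cumulus and granulosa genes was called either (35.4 to 86.5 against 40.6 to 74.4 FPKM), nor of 8 sperm genes (36.8 to 62.6 against 42.3 to 55.7 FPKM, with PRM2 at 0 in all 11) or 21 fibroblast genes (27.9 to 238 against 37.1 to 736 FPKM). Of 8 blood genes 1 was called, and the summed FPKM were 17.1 to 45.7 against 6.87 to 15.2, while the globins HBA and HBB were at 0 in all 11 libraries. The called gene was LYZ, a lysozyme, at 15.2, 40.3, 26.6, 24.4 and 28.5 FPKM against 1.25 to 4.13 FPKM (median 1.48) (log2 fold change 3.13 ± 0.34 (SE), adjusted p = 4.9e-05).

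Male embryos gave the same comparison with no shared library. Of 14325 autosomal genes tested in 6 male sham NT-BLs against 6 male IVF-BLs, 1751 were called (12.2%), 879 higher (6.14%) and 872 lower (6.09%). Of the 1983 genes called in females, 1981 could be tested in males, 1751 of these had the same sign (88.4%, against 67.3% of the 13580 genes tested in both sexes), 775 were called in the same direction and 15 in the opposite one. The shared calls were 39.1% of the female and 44.3% of the male calls. In male sham NT-BL replicates 1 and 2 alone, the libraries on the side of the male IVF-BLs, 1735 of 1971 female calls had the same sign (88.0%), 397 were called in the same direction and 5 in the opposite one. That fit called 755 of 14182 autosomal genes, and the same-sign share over all its genes was not taken.

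Named genes called in the same direction in both sexes included, as examples chosen after their values were seen, TCF25 (log2 fold change 5.54 in females and 5.08 in males (difference 0.46, adjusted p = 0.904)), MCL1 (2.92 in females and 2.14 in males (difference 0.77, adjusted p = 0.404)), H2AFZ (3.01 in females and 2.63 in males (difference 0.38, adjusted p = 0.734)), DDIT3 (2.31 in females and 2.15 in males (difference 0.16, adjusted p = 0.951)), ATF6 (2.18 in females and 1.69 in males (difference 0.49, adjusted p = 0.696)) and FKBP4 (2.16 in females and 2.02 in males (difference 0.14, adjusted p = 0.934)). On the lower side were POU5F1 (-1.97 in females and -1.69 in males (difference -0.29, adjusted p = 0.836)), ESRRB (-2.28 in females and -1.43 in males (difference -0.85, adjusted p = 0.326)), KLF5 (-1.01 in females and -1.53 in males (difference 0.52, adjusted p = 0.407)), CDC20 (-1.73 in females and -1.9 in males (difference 0.17, adjusted p = 0.855)) and GPX4 (-1.75 in females and -3.63 in males (difference 1.88, adjusted p = 0.244)). None of these differences between the sexes passed. IFNT was at 9.198 to 434 FPKM in male sham NT-BLs and 9.84 to 316 FPKM in male IVF-BLs, a log2 fold change of 0.77 in males (adjusted p = 0.622), and its difference between the sexes did not pass (-4.04, adjusted p = 0.166).

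A fit of the 4 sham and IVF groups asked where the sham effect differed between females and males. Of 14742 autosomal genes, 126 had a higher and 55 a lower effect in females (181, 1.23%), and with the split of the libraries as a term 9 and 6 remained. The genes with the largest lower effect in females were MIR2290 (-6.59 in females and 6.28 in males (difference -12.87, adjusted p = 0.00417)), LOC787220 (-5.39 in females and 3.88 in males (difference -9.27, adjusted p = 0.00109)), LOC782021 (-3.69 in females and 4.88 in males (difference -8.57, adjusted p = 1.4e-04)) and ITPR2 (-4.0 in females and 3.49 in males (difference -7.49, adjusted p = 0.00109)), and those with the largest higher effect LOC100139891 (3.54 in females and -2.93 in males (difference 6.47, adjusted p = 0.0243)), LOC519862 (2.66 in females and -3.17 in males (difference 5.83, adjusted p = 0.00801)), CNGB1 (3.72 in females and -1.43 in males (difference 5.15, adjusted p = 0.00207)) and LOC783151 (3.61 in females and -0.58 in males (difference 4.19, adjusted p = 5.2e-04)). None of these 8 differed between the sexes with the split as a term, and 5 of them are split genes, for which that loss was largely built into the fit. Among genes of the lists, SLC3A2 (1.89 in females and -0.16 in males (difference 2.04, adjusted p = 0.00449)), CAT (-1.79 in females and -0.17 in males (difference -1.62, adjusted p = 0.00795)), GCLC (-1.79 in females and -0.53 in males (difference -1.26, adjusted p = 0.0379)), HSPA9 (-0.68 in females and 0.46 in males (difference -1.14, adjusted p = 0.0205)) and ATP5H (2.35 in females and 0.27 in males (difference 2.08, adjusted p = 0.00369)) differed, again without passing once the split was a term (adjusted p from 0.0799 for GCLC to 0.877 for HSPA9). With the split as a term the difference was 2.49 for SLC3A2, -1.96 for GCLC, 1.90 for ATP5H and -1.05 for CAT. A lost call there does not by itself mean that the difference became small. In males 9 subunits of oxidative phosphorylation were called higher and 20 lower (median -0.09), against 11 and 5 in females.

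The female SCNT-BLs (n = 6), cloned by fusing an ear skin fibroblast with an enucleated oocyte, are given for reference. Sham NT-BLs against SCNT-BLs and SCNT-BLs against IVF-BLs each share libraries with the comparison above, so their values stand only side by side. The former gave 1633 calls among 14495 autosomal genes (11.3%), 870 higher and 763 lower, and the latter 45 among 14615 (0.308%), 30 higher and 15 lower. All 6 female SCNT-BLs lie on the side of the female IVF-BLs in the split, so sham against SCNT carries the same imbalance as sham against IVF, and SCNT against IVF carries none. In a fit of sham NT-BLs and SCNT-BLs of both sexes with the split as a term, the former comparison had 449 higher and 345 lower calls. TCF25 was at 0 to 17.8 FPKM in the SCNT-BLs, MCL1 at 147 to 334, H2AFZ at 28.7 to 159, POU5F1 at 27.3 to 67.2 and ESRRB at 57.1 to 113. Against these SCNT-BLs the sham NT-BLs differed by 4.48 at TCF25, 2.96 at MCL1, 3.34 at H2AFZ, -1.4 at POU5F1 and -2.34 at ESRRB (adjusted p of 0.00168, 6.9e-05, 8.8e-05, 0.00744 and 3.7e-05). With the split as a term MCL1, H2AFZ and ESRRB remained called against the SCNT-BLs, and TCF25 (adjusted p = 0.0802) and POU5F1 (adjusted p = 0.0794) did not. Of the genes named above, IER3 and TXNRD1 were called lower and LOC783151 higher in the SCNT-BLs against the IVF-BLs (log2 -2.68, -1.2 and 1.64, adjusted p = 0.0138, 0.0383 and 0.0253).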

How the data were processed

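Poly-A RNA of each single blastocyst was amplified by the authors with random primers and PCR and sequenced, and sequence duplicates cannot be told from separate molecules. The deposited values are FPKM, made by the authors with TopHat and Cufflinks from known transcripts of the bovine build UMD 3.1, after trimming with Trim Galore (versions and strand setting are not given in the sources used here). Read counts were not used, so depth is unknown, and the study's Cuffdiff was replaced by limma.

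Groups came from the sample titles. Rows of the X block (999) and 20 other rows on X, Y or mitochondrial sequence were set aside after the fit, and 803 rows share a symbol. The remaining 21609 rows were counted as autosomal, of which 17314 had a chromosome in the annotation at hand. Genes with a mean over 0.1 FPKM were tested on log2(FPKM + 1) with limma 3.58.1 in R 4.3.3 (empirical Bayes with trend, Benjamini-Hochberg, threshold 0.05). Single values per embryo had exact two-sided permutation tests. Tables and figures used Python 3.11.15, numpy 2.4.6, pandas 2.3.3 and matplotlib 3.10.9. In simulated data with 200 changed genes among 15259 for female sham NT-BLs against female IVF-BLs, 19% of those with a log2 fold of 1 and 89% of those with a log2 fold of 2 were recovered, and 2 of 15059 unchanged genes were called. The simulation changed only genes well above the filter, a far smaller share than was called here. It drew noise independently for each gene and held no split of the libraries, so these shares are not estimates for these data.

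Named genes were, in each direction, the 12 called autosomal genes that changed most on the log2 scale (unnamed loci only among the first 3), every list member that passed, a set of core genes whatever their result and, for the difference between sexes, 4 genes in each direction. Some genes that count in the totals are not reported here by name. The members and gene lists were chosen with earlier results of these data known. Other pseudocounts, filters, scalings, tests, weights, samples and a replicate block were tried. The equal summed FPKM, the symbols with 1 row, the term for the split of the libraries and the male sham NT-BLs on 1 side were added after the data were seen. The bovine build of the annotation at hand differs from that of the files, so no coordinates are given.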

Additional observations from a re-analysis of the deposited data

Results flagged for a closer look

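In 24 groups of 5 or 6 embryos at a named gene or embryo-wide measure, 6.12% of those tested, 1 embryo lay far from the others by Dixon's test, near the about 1 group in 20 that chance gives. Sham NT-BL replicate 1 stood apart at MIR2290 (801 FPKM), LOC787220 (52.5 FPKM), CNGB1 (1.37 FPKM) and SOD1 (351 FPKM), the first 3 being genes of the split. Sham NT-BL replicate 2 stood apart at GPX4 (26.7 FPKM) and replicate 3 at TXNRD1 (22.3 FPKM). Sham NT-BL replicate 5 stood apart at RPL7A (80.5 FPKM), IDI1 (8.61 FPKM), NDUFA4 (1170 FPKM), KRT8 (2275 FPKM) and RPS6 (525 FPKM).

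Among the IVF-BLs, replicate 6 stood apart at KLF5 (111 FPKM), IDH3B (58.4 FPKM), CYR61 (10.6 FPKM), PDIA4 (62.1 FPKM), KRT8 (607 FPKM), KRT18 (864 FPKM), ARID3A (2.85 FPKM) and ACAT2 (13.3 FPKM). The others were ATP5H in replicate 1 (186 FPKM), IDH1 in replicate 2 (296 FPKM), LOC519862 in replicate 3 (0.411 FPKM), and TK1 (4.93 FPKM) and NDUFS5 (51.6 FPKM) in replicate 5.

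The sham effect differed between females and males at 23 named genes (limma adjusted p under 0.05, female minus male log2 fold change). It was lower in females at MIR2290 (-12.87), LOC787220 (-9.27), LOC782021 (-8.57), ITPR2 (-7.49), WDR83OS (-2.76), CAT (-1.62), GCLC (-1.26) and HSPA9 (-1.14). It was higher in females at LOC100139891 (6.47), LOC519862 (5.83), CNGB1 (5.15), LOC783151 (4.19), NDUFA7 (3.48), C7H19orf70 (2.69), LYZ (2.48), NDUFA3 (2.29), RPL5 (2.13), ATP5H (2.08), RPS29 (2.05), SLC3A2 (2.04), RPL31 (1.98), RPL15 (1.48) and NDUFA4 (1.47). With the split of the libraries as a term none of the 23 passed, NDUFA3 (3.16, adjusted p = 0.0545) and GCLC (-1.96, adjusted p = 0.0799) being nearest. For the split genes among the 23 that loss was largely built into the fit.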

How the results depend on the processing

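FPKM give no depth, the groups hold 5 and 6 single embryos, and the sham NT-BLs lie mostly on 1 side of the split. With the split of the libraries as a term, higher calls went from 1032 to 497 and lower calls from 951 to 432, and called list members from 155 to 84. In that fit 8 of the 1983 calls turned sign, among them the split genes MIR2290 (1.01) and LOC519862 (-0.79), and LOC100139891 (-0.06). So did LDHA (-0.24), TFAP2C (0.24), CDK1 (0.42) and IGF2R (-0.55), which were not called, and the medians of the p53 (0.01), oocyte (0.03), fatty acid (0.08) and cumulus (-0.00) lists. Against SCNT-BLs, higher calls went from 870 to 449 and lower calls from 763 to 345, and the sex difference fell from 126 and 55 calls to 9 and 6. At equal summed FPKM the lower calls were 1611, those against SCNT-BLs 1163 and those of the sex difference 86, and the medians of the oxidative phosphorylation and serine lists were -0.10 and -0.13. The exact rank test gave 588 lower calls and 89 list members. With a mean over 1 FPKM, SCNT-BLs against IVF-BLs had 29 lower calls in place of 15. The 2 male sham NT-BLs on the side of the male IVF-BLs alone gave 409 higher and 346 lower calls in place of 879 and 872. The cause of these changes was not tested. Under the other planned and added settings the higher and lower calls stayed within 1.5 times 1032 and 951, with 1983 of 1983 calls in the same direction where all could be tested.

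The replicate numbers did not pair the samples (r from -0.0521 to 0.0686 over 5 pairs, with 1 embryo nearest to its own number). With the replicate block, which leaves out IVF-BL replicate 6, 815 genes were higher and 717 lower, 34 of the 155 list calls were lost, and within sex the sex difference had 48 and 18 calls.

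Leaving out 1 embryo at a time gave 797 (without sham NT-BL replicate 3) to 1076 higher calls, 660 (without sham NT-BL replicate 4) to 919 lower calls and 119 to 164 called list members. The difference, sham minus IVF, in autosomal genes listed at 0 ranged from 602.2 to 901.6 (775.5 with all) and lost its exact permutation call in 6 of 11 cases, that in autosomal genes over 1 FPKM from -440.5 to -274 (-362.4 with all) in 6, and that in the median log2(FPKM + 1), autosomal genes with mean over 1 FPKM, from -0.0842 to -0.0529 (-0.0693 with all) in 4. The difference in autosomal genes over 0.1 FPKM ranged from -495.2 to -326.8 (-411.9 with all) and passed without sham NT-BL replicate 5 alone.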
